A study of Homo sapiens with 32 samples.

Results

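The small ribosomal subunit assembly factors are the proteins that build the small subunit of the ribosome and are not part of the finished particle. A list of 49 gene symbols with known roles in this process defined the group, and all 49 were found among the 18638 genes of the count table through their Ensembl identifiers. Each was targeted by 4 sgRNAs, so that the group held 196 of the 74552 sgRNAs directed against genes. The screen used RKO, an established human colon carcinoma line, in which lentivirus had integrated transgenes for Kinprola PKA (a recorder that becomes fluorescently labeled by the dye CPY-CA where protein kinase A is active, fused to EGFP) and for Cas9. All sorted cells carried both transgenes, the HD CRISPR sublibrary A and the CPY-CA label, and they differed in the gene that their sgRNA targeted and in their labeling normalized to EGFP. Sorting gave a low population of around 25%, a medium population of around 50% (called basal in the sample labels) and a high population of around 25% of the cells, and T0 was the control of day 0. The labels number the 2 screens as replicates 2 and 3, and each screen had 1 library of each of these 4 kinds, so that 8 libraries resulted from 32 lane samples. For the medium population, the description of lane 4 names the high population in both screens while its title says basal, and the title was followed. The 4 lanes of each medium library differed by about the sampling noise.

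In human cells the small subunit starts as a long precursor RNA in the nucleolus. The UTP-A complex binds the leader of that precursor first, and the UTP-B complex, the U3 snoRNP (a small RNA with its proteins) and many single factors join it to form the small subunit processome, within which the precursor is cut and folded. Helicases then take the processome apart, and late factors accompany the precursor particle, the pre-40S, to the cytoplasm, where the nuclease NOB1 makes the final cut. Loss of most of these factors stops ribosome production, and many of them are needed for proliferation of human cells.

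Reads of an sgRNA, relative to the library total, measured the share of cells in a population that carried it. They do not show which of these cells were edited, and the paper names moderate editing efficacy for the sgRNAs it retested singly. The libraries held 23369720 to 31777138 reads, with medians of 260 to 356 reads per sgRNA. The factors were measured less deeply than the median gene. The mean over all 8 libraries, T0 included, ran between 84.4 reads per sgRNA (*WDR43*) and 482 reads per sgRNA (*DCAF13*). Its median over the factors was 216, against 353 over all genes. Reads are given below after scaling each library to the mean library total, as the sum over the 4 sgRNAs of a gene. Log2 fold changes are means over the sgRNAs of a gene and then over both screens, with 1 read added to each value, which understates the change of sgRNAs with few reads, and ± denotes the standard error of limma's fit (n = 2 screens). The p-values are limma's, adjusted by the Benjamini-Hochberg method over all entries, and a gene is called at an adjusted p under 0.05. They rest on the spread between the 2 screens, which limma moderates toward a value common to all entries. That common value carried 10.2 degrees of freedom in high versus low and 23.6 in the comparison with T0. The p-values and standard errors, and the intervals built on them, thus do not measure the spread of 1 gene alone. The amplified reads carried no molecular identifiers, so that counting error alone understates the error of a value.

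The largest change of the factors lay between T0 and sorting. For this comparison the high, medium and low reads of a screen were pooled with the weights 0.25, 0.5 and 0.25 of their gates. Of the 49 factors, 44 were lower in the sorted pool than at T0 and 0 were higher, where 8.35% of all genes were called lower and 2.54% higher. The median log2 fold change of the factors was −0.65, a ratio of 0.636, against 0.04 over all genes. Summed over the group, the sorted pools held 40556 and 40226 scaled reads (replicate 2 first, here and below), and T0 held 63863 and 63179, which are ratios of 0.635 and 0.637. In summed reads, both pools were below both T0 libraries in all 49 factors, which held for 21.3% of all genes. The sgRNAs of a factor shared this direction in most cases. Of the 196 sgRNAs, 171 (87.2%) were lower in the pool in both screens, against 26.6% of all sgRNAs directed against genes, and 31 factors had all 4 sgRNAs lower. For this last count the share of all genes is not given here. Without the T0 library of replicate 3, 26 factors were called lower.

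The sgRNAs without a target rose relative to T0 by medians of 0.23 and 0.25 in the 2 screens. When the fold changes were centred on them, 49 of the 49 factors were called lower, and over all genes 22 were called higher and 6072 lower, in place of 473 and 1556. This centring moved the median of all genes to −0.20 and that of the factors to −0.89.

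**Figure D1:**
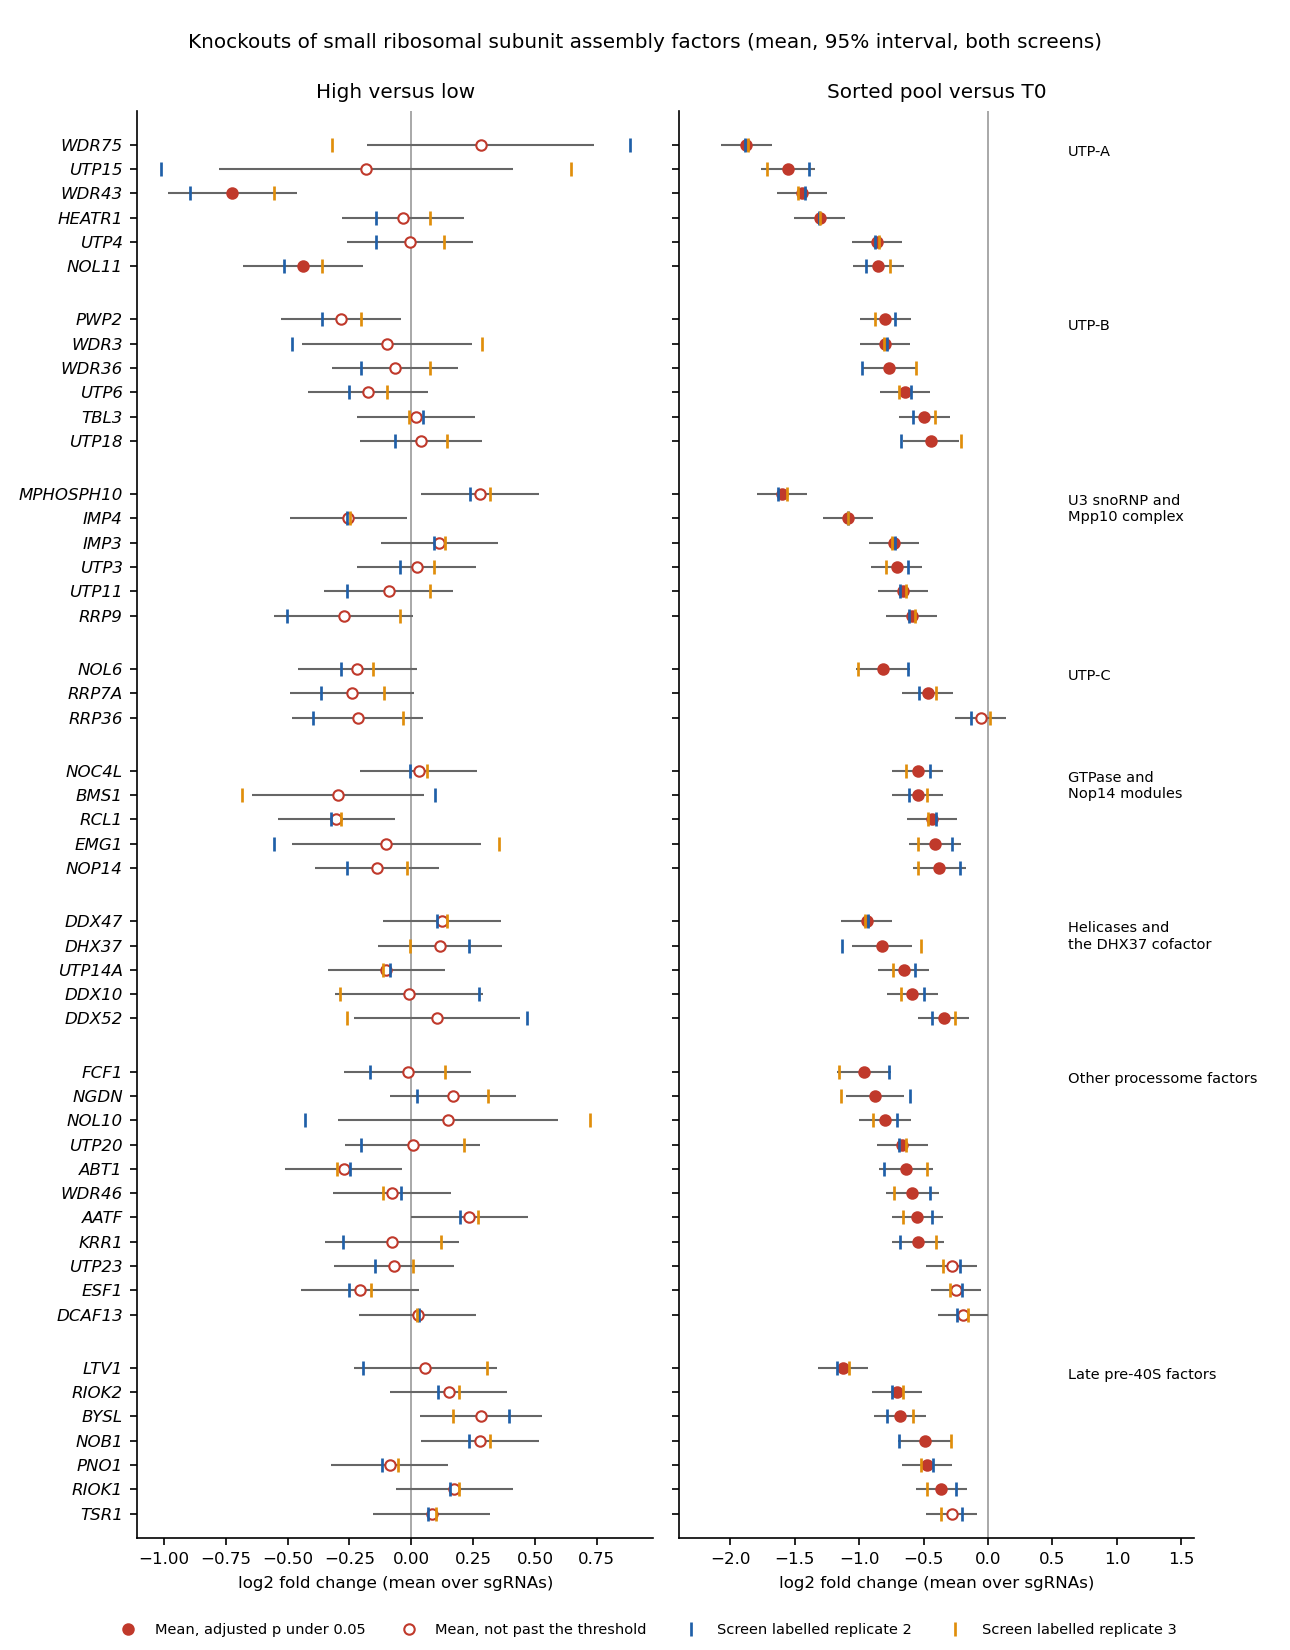
Log2 fold change of each of the 49 factors, grouped by role down the page, in the sorted pool versus T0 and in high versus low. Points are means over 4 sgRNAs and both screens, bars are 95% intervals of limma's fit and small marks are the single screens. The T0 values run between −1.87 and −0.06, whereas 40 of the 49 intervals of high versus low include 0.

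UTP-A, the complex that binds the precursor first, had the lowest median of the 8 role groups, at −1.38, and all 6 of its members fell. *WDR75*, a beta-propeller subunit, had 433 and 475 scaled reads in the sorted pools of replicates 2 and 3, against 1458 and 1382 at T0. Its log2 fold change was −1.87 ± 0.09 (adjusted p = 1.26e-14), a ratio of 0.273, and it was the largest loss among the factors. *UTP15* had 601 and 463 scaled reads in the sorted pools, against 1700 and 1419 at T0 (log2 fold change −1.55 ± 0.10, adjusted p = 1.86e-12). *WDR43* had 219 and 238 scaled reads in the sorted pools, against 614 and 700 at T0 (−1.44 ± 0.09, adjusted p = 2.63e-12). *HEATR1*, the large scaffold of the complex, had 665 and 669 scaled reads in the sorted pools, against 1638 and 1556 at T0 (−1.31 ± 0.09, adjusted p = 2.03e-11). In each of these 4 genes the pools lay far below both T0 libraries, and the screens differed by less than that gap. *UTP4* and *NOL11*, a subunit found in vertebrates, fell by 0.86 and 0.85 on the log2 scale.

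All 6 members of UTP-B, the next complex to join, fell as well, with a median of −0.71 and a narrow range, from −0.80 (*PWP2* and *WDR3*) to −0.44 (*UTP18*). The U3 snoRNP protein *RRP9*, which recognizes the U3 RNA, fell by 0.59. *MPHOSPH10* forms a complex with *IMP3* and *IMP4* that bridges U3 and the precursor. It had 615 and 569 scaled reads in the sorted pools, against 1367 and 1085 at T0, with a log2 fold change of −1.60 ± 0.09 (adjusted p = 3.51e-13). *IMP4* had 513 and 503 scaled reads in the sorted pools, against 907 and 942 at T0 (−1.09 ± 0.09, adjusted p = 8.35e-10). *IMP3*, *UTP3* and *UTP11* lay between −0.73 and −0.66, so that all 6 members of this group fell.

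UTP-C differed among its 3 members. *NOL6*, a structural subunit, fell by 0.81 and *RRP7A* by 0.47. *RRP36* had 1656 and 1670 scaled reads in the sorted pools, against 1862 and 1858 at T0, and its log2 fold change of −0.06 ± 0.10 did not pass the threshold (adjusted p = 0.780). Its 95% interval ended at 0.14 on the upper side. The GTPase *BMS1*, its partner *RCL1*, *NOP14*, *NOC4L* and the RNA methyltransferase *EMG1* all fell, within −0.54 and −0.38. All 5 helicases and helicase cofactors fell too. They were led by *DDX47* at −0.94 and by *DHX37*, the helicase that strips U3 from the processome, at −0.82, whereas *UTP14A*, which activates *DHX37*, was at −0.65, *DDX10* at −0.59 and *DDX52* at −0.34.

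Of the 11 other processome factors, 8 fell. The nuclease *FCF1* had the lowest value of them, −0.96, followed by *NGDN* at −0.87, *NOL10* at −0.80 and *UTP20* at −0.66. *NGDN*, *NOL10* and *AATF* form a module, and *AATF* fell by 0.55. *UTP23* (−0.28, adjusted p = 0.0610), *ESF1* (−0.25, adjusted p = 0.104) and *DCAF13* (−0.20, adjusted p = 0.219) did not pass the threshold. Among the 7 late pre-40S factors, 6 fell. *LTV1*, which is released in the cytoplasm, had 522 and 494 scaled reads in the sorted pools, against 1185 and 1055 at T0 (−1.12 ± 0.10, adjusted p = 4.72e-10). The kinase *RIOK2* fell by 0.70, *BYSL* by 0.68, *NOB1* by 0.49, *PNO1*, which binds beside the *NOB1* cut, by 0.47 and the kinase *RIOK1* by 0.36. *TSR1* was at −0.28 (adjusted p = 0.0618).

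The 7 factors at a log2 fold change of −1 or lower (*WDR75*, *MPHOSPH10*, *UTP15*, *WDR43*, *HEATR1*, *LTV1* and *IMP4*) were singled out after their values were seen. Such a loss was called for 3.06% of all genes. Single sgRNAs went further than the gene means: 34 sgRNAs in 17 factors had a mean of −1 or lower, and sgRNA 2 of *WDR43* was at −2.02 while sgRNA 3 of the same gene was at −0.89. The share of all sgRNAs at such a mean is not given here. The screens ranked the factors alike, with a correlation across the 49 factors of r = 0.816 (rho = 0.687). Genes are not independent replicates and the screens share the sgRNAs, so that this is a description.

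**Figure D2:**
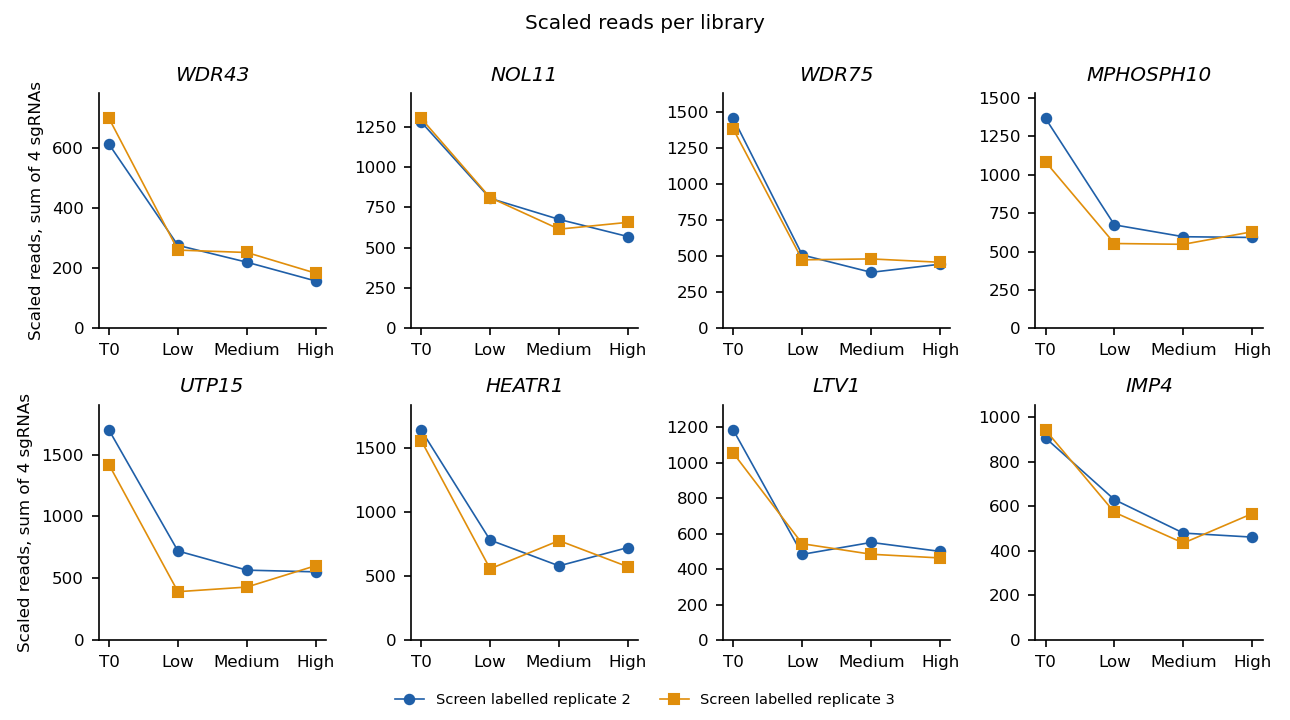
Scaled reads of *WDR43*, *NOL11* and 6 further factors, summed over 4 sgRNAs, at T0 and in the low, medium and high populations. Each line is 1 screen and each point 1 library. T0 is the highest point of every line, and for *WDR43* and *NOL11* both high libraries lie below both low libraries.

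The comparison between high and low labeling, the main readout of the screen, gave few calls for the factors. Of the 49, 2 were lower in the high population than in the low one and 0 were higher, where 2.73% of all genes were called lower and 5.25% higher. At an unadjusted p under 0.05 limma gave 9 factors (18.4%), 3 higher and 6 lower, against 17.6% of all genes. edgeR on gene counts, at the adjusted threshold, called *NOL11* and *RCL1* lower and *NOB1* higher, that is 2 and 1 of the 49, where it called 5% of all genes lower and 6.84% higher. The median log2 fold change of the factors was −0.03, against −0.01 over all genes, and it was 0.05 after centring on the sgRNAs without a target. Its sign also depended on single libraries, since it was 0.02 without the high library of replicate 2, 0.06 without the low library of replicate 2, −0.07 without the high library of replicate 3 and −0.16 without the low library of replicate 3. That centring also changed the calls over all genes to 1111 higher and 308 lower, in place of 979 and 508. The SD of the factors (0.202) was below that of all genes (0.347), whose values reached −2.75 and 4.15. The quartiles did not show a smaller spread, at −0.183 and 0.102 for the factors against −0.114 and 0.099 for all genes. Summed over the group, the high population held 39961 and 40541 scaled reads and the low population 44373 and 40366, ratios of 0.901 and 1.00.

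Both called genes belong to UTP-A. *WDR43* (GRCh38, chromosome 2, 28894667 to 28948219) had 158 and 184 scaled reads in the high populations of replicates 2 and 3, against 277 and 261 in the low populations. Its medium populations held 220 and 253 and its T0 libraries 614 and 700. Both high libraries were thus below both low libraries. The log2 fold change was −0.72 ± 0.12 (−0.89 and −0.55 in the single screens, adjusted p = 0.00179), a ratio of 0.606. *NOL11* (GRCh38, chromosome 17, 67717931 to 67744531) had 568 and 657 scaled reads in the high populations, against 805 and 810 in the low populations. Its medium populations held 675 and 614 and its T0 libraries 1279 and 1301. Again the groups did not overlap, and the log2 fold change was −0.44 ± 0.11 (−0.51 and −0.36 in the single screens, adjusted p = 0.0297), a ratio of 0.738. The call on *WDR43* was lost without the high library of replicate 2 (adjusted p = 0.0538), without the low library of replicate 2 (adjusted p = 0.115) and in edgeR on gene counts (adjusted p = 0.0591). The call on *NOL11* was lost in limma on the libraries with the replicate block, with no library left out (adjusted p = 0.108). *WDR43* stayed called there (adjusted p = 0.00627). The fits without a high or low library used that model, so they cannot show whether the *NOL11* call rests on 1 library. In them its log2 fold change ran between −0.60 and −0.28.

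The other UTP-A members were not called. *UTP15* had 552 and 602 scaled reads in the high populations, against 721 and 391 in the low populations. Its log2 fold changes of −1.01 and 0.65 had opposite signs in the screens, and their difference of 1.66 was the largest of the 49 factors. Without the high library of replicate 3 it was called lower (adjusted p = 0.0167). *WDR75* was at 0.88 in the screen labelled replicate 2 and −0.32 in the other as a mean over sgRNAs, although its summed reads were 445 and 459 in the high populations, against 509 and 476 in the low populations. *UTP4* (0.00) and *HEATR1* (−0.03) lay near 0, with standard errors of 0.12 and 0.11.

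*WDR43* had the fewest reads per sgRNA of all the factors, and its sgRNAs were unequal. In edgeR's quasi-likelihood test sgRNA 1, with 49.7 and 24.9 scaled reads in the high populations and 87.6 and 77.8 in the low populations, had a log2 fold change of −1.12 (adjusted p = 0.160). The sgRNAs 4, 3 and 2 were at −1.01, −0.55 and −0.12, with adjusted p-values of 0.475 and above. For *NOL11*, sgRNA 3 was at −0.90 (adjusted p = 0.311), sgRNA 1 at −0.69 (adjusted p = 0.128), sgRNA 4 at −0.24 and sgRNA 2 at 0.05. The gene values of both thus came mostly from some of their 4 sgRNAs, and no single sgRNA of either passed the threshold.

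After these genes the largest absolute changes were those of *RCL1* and *BMS1*, which form a complex. *RCL1* had a log2 fold change of −0.30 ± 0.11 (adjusted p = 0.142 in limma), close in both screens (−0.32 and −0.28), and its 4 sgRNAs ran between −0.51 and −0.08. edgeR on gene counts gave −0.28 and called it lower (adjusted p = 0.0210), while its adjusted p in the other settings lay between 0.0659 and 0.515. *BMS1* was at −0.30 ± 0.16 (adjusted p = 0.387), with 0.10 in the screen labelled replicate 2 and −0.69 in the other. The second value included sgRNA 3, which had 1.19 scaled reads in the high population and 6.58 in the low population of replicate 3 and none in any library of replicate 2. edgeR did not test this sgRNA, and the remaining sgRNAs of *BMS1* were at −0.26, −0.09 and 0.06. Without the high library of replicate 2, *BMS1* was at −0.67 and was the only factor called lower (adjusted p = 0.0253), and without the high library of replicate 3 it was at 0.0781. On the other side, *BYSL* (0.28, adjusted p = 0.205), *WDR75* (0.28, adjusted p = 0.579), *MPHOSPH10* (0.28, adjusted p = 0.192) and *NOB1* (0.28, adjusted p = 0.194) had the highest values.

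By role, the medians of high versus low were −0.11 for UTP-A, −0.08 for UTP-B, −0.03 for the U3 and Mpp10 group, −0.22 for UTP-C, −0.14 for the GTPase and Nop14 modules, 0.10 for the helicases, −0.01 for the other processome factors and 0.15 for the late pre-40S factors. The 3 UTP-C members lay close together, between −0.24 and −0.22, with no call among them. Of the 7 late factors, 6 had positive values (0.06 to 0.28) and *PNO1* was at −0.09. In limma no role group other than UTP-A held a call in either direction, whereas the edgeR calls on *RCL1* and *NOB1* lay outside UTP-A, and these medians were not tested against each other.

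The intervals show what size of change could have been missed. The 95% interval of high versus low had a half-width of 0.236 to 0.592 (median 0.246, widest for *UTP15*), and it included 0 in 40 of the 49 factors. In 36 factors the whole interval lay between −0.5 and 0.5. The lowest bound was −0.98 (*WDR43*) and the highest 0.74 (*WDR75*). Over all genes the smallest change that limma called was 0.39 in absolute value, and limma called no smaller shift of a factor with these 2 screens. The signs of the screens were opposite in 22 of the 49 factors and the same in 27, where 11470 of all 18638 genes had the same sign. The correlation of the screens across the factors was r = −0.091 (rho = 0.098), again as a description. Both high libraries were below both low libraries in 16 factors (32.7%), against 25.5% of all genes, and above them in 6 (12.2%), against 22.4% of all genes.

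At the level of single sgRNAs edgeR called 0 of 195 tested sgRNAs enriched and 0 depleted in high versus low, where 2.95% of all tested sgRNAs against genes were enriched and 1.55% depleted. DESeq2 also called 0 in both directions. At an unadjusted p under 0.05 there were 16 sgRNAs (8.21%), against 12.9% of all sgRNAs against genes. The lowest adjusted p, 0.0575, belonged to sgRNA 1 of *NOB1*, with 284 and 257 scaled reads in the high populations, against 215 and 116 in the low populations. Among the 175 sgRNAs with at least 50 mean reads, the log2 fold changes ran between −1.12 (sgRNA 1 of *WDR43*) and 1.00 (sgRNA 3 of *MPHOSPH10*).

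**Figure D3:**
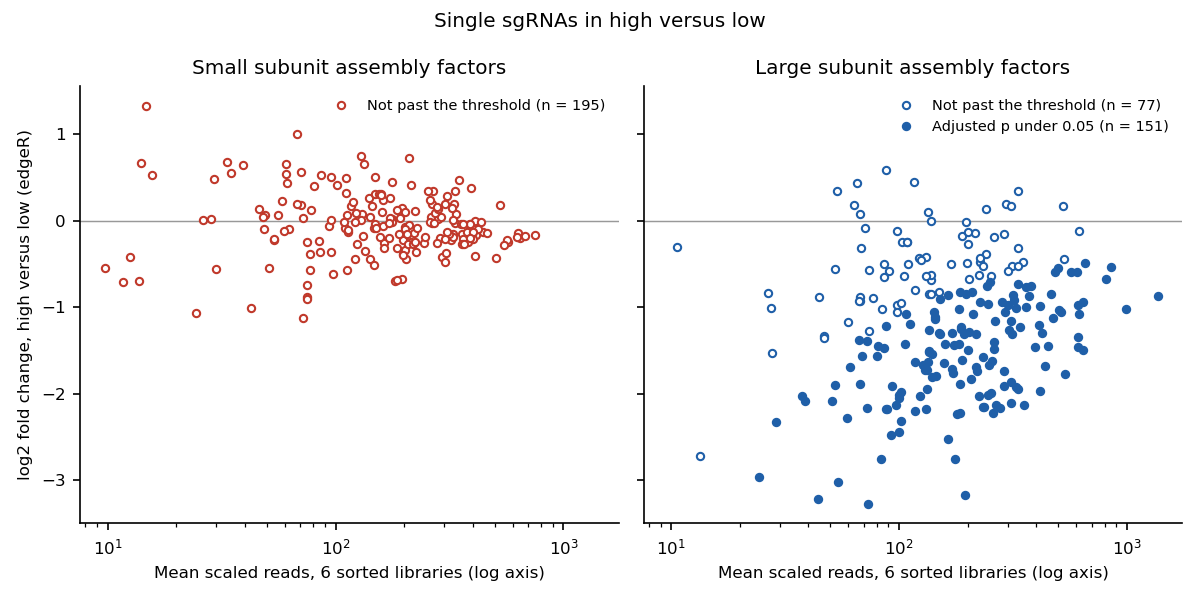
Log2 fold change of single sgRNAs in high versus low (edgeR) against their mean scaled reads in the 6 sorted libraries (log axis), for the small subunit assembly factors on the left and the large subunit assembly factors on the right. Filled points have an adjusted p under 0.05. There are 0 filled points among the 195 sgRNAs of the small subunit assembly factors and 151 among the 228 sgRNAs of the large subunit assembly factors.

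The medium population separated from the others for none of the factors. In low versus medium 0 of the 49 were higher and 0 lower, where 1.18% of all genes were called higher and 1.54% lower, and 5 factors (10.2%, against 11.1% of all genes) had an unadjusted p under 0.05 in limma, all of them higher. edgeR on gene counts also called 0, where it called 2.51% of all genes higher and 2.71% lower. The median was 0.09, and the largest values were those of *RRP9* (0.61, adjusted p = 0.284), *WDR36* (0.54, adjusted p = 0.222) and *IMP4* (0.46, adjusted p = 0.0627). In high versus medium 0 were higher and 0 lower, where 1.7% of all genes were called higher and 0.0966% lower. Here limma gave 5 factors (10.2%, against 10.0% of all genes) at an unadjusted p under 0.05, 4 of them higher, and edgeR on gene counts called 0, where it called 3.55% of all genes higher and 0.687% lower. The median was 0.03, with *WDR36* at 0.48 (adjusted p = 0.350) and *WDR43* at −0.43 (adjusted p = 0.220) as the extremes.

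*WDR36* and *RRP9* had the largest joint excess of the low and high populations over medium among the factors. This measure, low plus high minus 2 times medium on the log2 scale, was 1.02 for *WDR36* and 0.95 for *RRP9*, and 0 factors were called higher and 0 lower (0.0376% of all genes were called higher and 0 lower, and 6 factors, 12.2%, had an unadjusted p under 0.05 in limma against 6.86% of all genes). *WDR36* had 1005 and 994 scaled reads in the low populations, 746 and 943 in the medium and 756 and 940 in the high, so that in summed reads only the low populations stood above medium in both screens. The joint excess of *WDR36* and *RRP9* was 1.70 and 1.81 in the screen labelled replicate 2, against 0.35 and 0.09 in the other. Their results in low versus medium, in high versus medium and in the joint excess depended on the medium library of replicate 3. Leaving it out moved them further to the higher side. That fit kept only the medium library of replicate 2, which held fewer reads of both genes (746 against 943 for *WDR36*, 887 against 1091 for *RRP9*). Of the single sgRNAs, edgeR called 1 enriched and 0 depleted in low versus medium (0.645% and 0.755% of all tested sgRNAs against genes). It was sgRNA 3 of *RRP9* (771 and 666 scaled reads in the low populations, against 442 and 595 in the medium populations, adjusted p = 0.0449). In high versus medium it called 0 enriched and 1 depleted (1.13% and 0.121% of all). This was sgRNA 4 of *PNO1*, with 126 and 121 scaled reads in the high populations, against 251 and 224 in the medium populations (adjusted p = 0.0254). These 2 sgRNAs were named after their values were seen.

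The other genes of the same pathway provide the scale for these values. Of 28 other genes with a role in small subunit assembly, 1 was higher and 0 lower in high versus low, with a median of 0.01. The higher one was *SNU13* (log2 fold change 1.50 ± 0.12, adjusted p = 6.12e-06), a protein of the U3 snoRNP that is also part of the spliceosome. Of the 57 large subunit assembly factors, 52 were lower and 0 higher, with a median of −1.17, led by the helicase *DDX56* at −2.48. All 49 small subunit factors had intervals whose lower bound was above that median. The ribosomal proteins divided by subunit as well. Of the 33 small subunit proteins, 17 were higher and 0 lower (median 0.48, *RPS7* at 1.79), and of the 46 large subunit proteins, 1 was higher and 30 lower (median −0.99, *RPL10A* at −2.75). The assembly factors of the small subunit thus had a median between those of the proteins of their own subunit and the assembly factors of the other one.

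**Figure D4:**
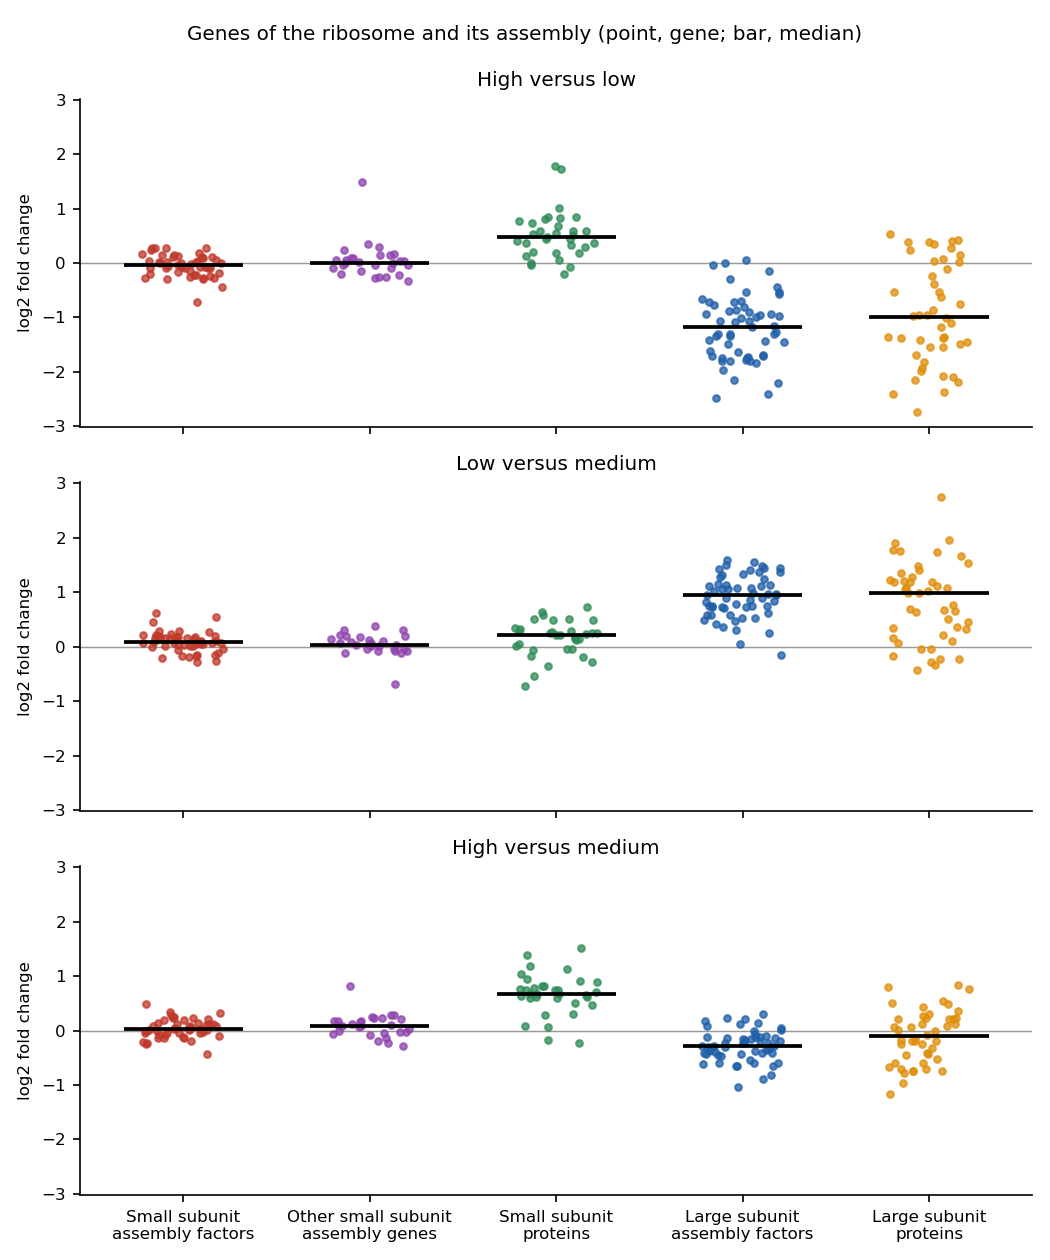
Log2 fold changes of the genes of 5 lists in high versus low, in low versus medium and in high versus medium. Points are genes and bars are medians. In high versus low the medians are −0.03 for the small subunit assembly factors and −1.17 for the large subunit assembly factors. In high versus medium they are 0.03 and −0.28.

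Both kinds of assembly factor were lost since T0. The small subunit factors had a median of −0.65 in the sorted pool versus T0, with 44 of 49 lower, against −0.89 and 50 of 57 for the large subunit factors, and the difference of these medians was not tested. In summed reads, the pools held 0.635 and 0.637 of T0 for the small subunit factors, against 0.591 and 0.558 for the large subunit factors. The ratios of high over low were 0.901 and 1.00 for the small subunit factors, against 0.474 and 0.489 for the large subunit factors. The 7 small subunit factors with a T0 value of −1 or lower included 1 that was lower in high versus low (*WDR43*, median of the 7 −0.03), whereas the 34 large subunit factors with a T0 value above −1 included 29 (median −0.99). The pool behind the T0 value contains the same high and low libraries, and this split was not tested. The screens correlated across the small subunit factors at r = −0.091 in high versus low, against r = 0.849 across the large subunit factors. The ribosomal proteins had medians of −1.83 for the small and −2.10 for the large subunit since T0.

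**Figure D5:**
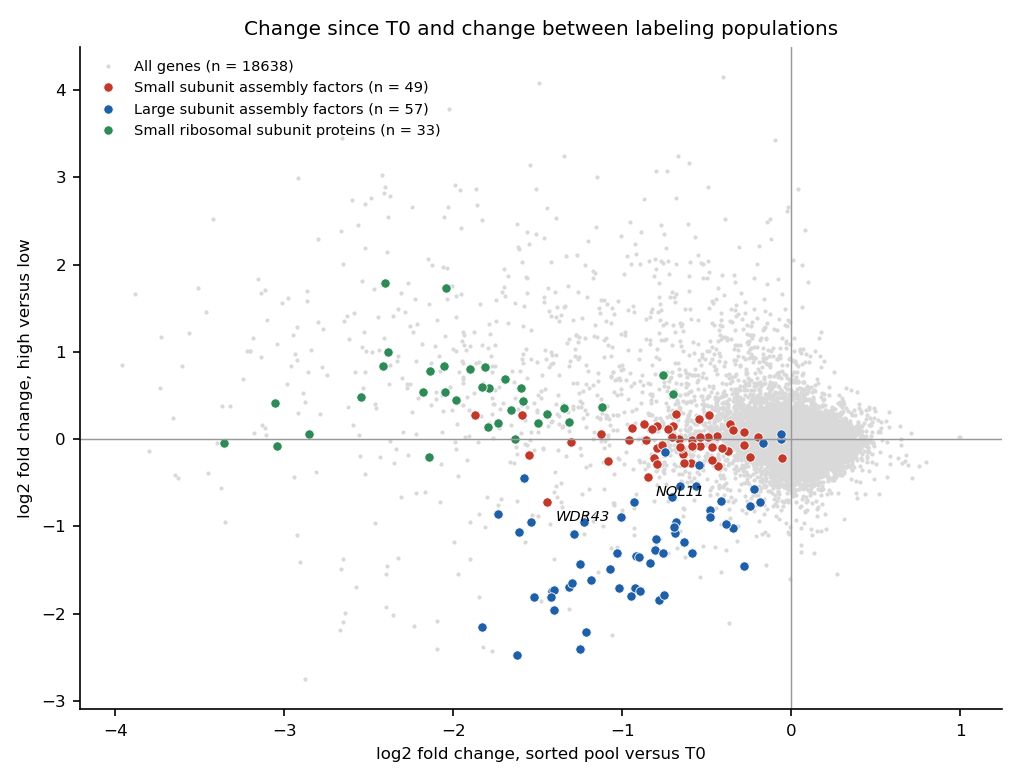
Log2 fold change in high versus low (y axis) against that in the sorted pool versus T0 (x axis), 1 point per gene. Shown are the small and the large subunit assembly factors, the 33 small ribosomal subunit proteins and, in grey, all 18638 genes. On the x axis both groups of assembly factors have like extremes (−1.87 and −0.06 for the small subunit, −1.83 and −0.06 for the large). Their quartiles differ, at −0.82 and −0.47 for the small against −1.25 and −0.59 for the large subunit factors. On the y axis the small subunit factors lie between −0.72 and 0.28 while the large subunit factors reach −2.48.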

How the data were processed

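MAGeCK was used by the authors to count reads per sgRNA, and they deposited raw counts for each of 4 sequencing lanes per library. An aligner and a genome build are not given in the sources used here. In the deposited table, 4 columns match no sample and were left out. The lanes of a library agree within sampling noise (chi-square over degrees of freedom of 1.02 to 1.03 for sgRNAs with at least 20 reads) and were added up. Each library was scaled to the mean total, a pseudocount of 1 read was used, and log2 differences within a screen were averaged across the sgRNAs of each gene. The mean of both screens was compared with 0 by limma 3.58.1 in R 4.3.3 (lmFit, eBayes), with Benjamini-Hochberg adjustment over 18659 entries, 21 of them controls, at an FDR of 0.05. Counts of single sgRNAs were tested by the quasi-likelihood test of edgeR 4.0.16 on 74739 entries with the screen as a block, and by DESeq2 1.42.0 as an alternative. The study's methods give limma and the fold change within replicates, whereas scaling and pseudocount were chosen here, and core-essential genes were not removed. Since the screens were performed independently, libraries of 1 screen were treated as paired. Their deviations from the mean of each population had correlations of 0.161 (high with medium), 0.123 (high with low) and 0.158 (medium with low), and of 0.073, 0.086 and 0.067 between T0 and high, medium and low. The statistical scripts were tested on simulated data. Gene names and coordinates are those of GENCODE release 44 (GRCh38), and of the 60 large subunit assembly factors and 47 large subunit proteins listed, 57 and 46 were found. The members, roles and lists were chosen with earlier results of these data known. Every factor was counted by role. Reads per library were given for those called between sorted populations, single sgRNAs for the 4 largest changes in high versus low, and other genes only where largest in their list. Data preparation and figures used Python 3.11.15.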

Additional observations from a re-analysis of the deposited data

How the results depend on the processing

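The count of 2 factors lower in high versus low became 1 (*WDR43*) when fold changes were centred on the sgRNAs without a target, in limma on the libraries with the replicate block and in limma with no replicate block, and it ran between 0 and 2 when 1 library was left out, with other genes called in part (*BMS1* alone without the high library of replicate 2, *UTP15* with *WDR43* without that of replicate 3). In edgeR on gene counts the 0 higher became 1 (*NOB1*), and the 2 lower were *NOL11* and *RCL1*. In low versus medium the count of 0 higher became 1 with a pseudocount of 5 reads (*IMP4*) and 2 with the median over sgRNAs (*IMP4* and *NOL6*). It also rose without the medium library of replicate 3, as did the counts of 0 higher in high versus medium and in low plus high minus 2 times medium. The 44 factors lower than T0 ran between 26 and 42 when 1 library was left out, and were 42 with the replicate block on libraries, 37 with no replicate block and 43 to 49 in the other settings. Of single sgRNAs in high versus low, 0 to 1 were enriched (sgRNA 1 of *NOB1*) and 0 to 1 depleted (sgRNA 2 of *RRP36*) when 1 library was left out. *BMS1* reversed in high versus low, to 0.0781, without the high library of replicate 3, and ran between −0.67 and 0.0781 over the libraries left out. The causes were not tested. For genes, the fits with 1 library left out used limma on the libraries with the replicate block. Their counts thus differ from those of the report in the model as well. No factor called in the report was called in the opposite direction under another setting run. Depth limits the factors with the fewest reads per sgRNA, *WDR43*, *DHX37* and *BMS1* (84.4, 98.5 and 101), and with only sgRNAs of at least 50 mean reads 3 factors were lower in high versus low.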
